A study of Mus musculus with 15 samples.

Results

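The 34 genes described here encode the enzymes of glycolysis, the membrane transporters that carry glucose and lactate, and genes switched on when oxygen is scarce. They were taken by name from 3 deposited tables of 24421 genes each: 17 glycolytic enzymes, 4 transporters, 11 targets of the hypoxia-inducible factor (HIF) and the 2 HIF alpha subunits. All 34 were found, and all 34 had a mean of at least 10 normalized counts in every comparison. The tables hold RNA-seq of mouse brain tumours from 2 models named HGG and EPN in the labels, with 15 libraries in 5 groups of 3. The groups are HGG control, HGG Sox9-LOF, HGG Sox9-GOF, EPN control and EPN Sox9-GOF, where LOF and GOF stand for loss and gain of function of Sox9, a transcription factor of glia and neural progenitors. The labels give no age, strain, tumour driver, promoter or method of changing Sox9, and they do not state whether each replicate is a tumour of another animal. If not, the p-values reflect no more than the variation among these samples. The tumours were sequenced as whole tissue, in which fewer cells of a type and less RNA per cell cannot be told apart.

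Sox9 itself was measured first, as a check of the labels. Its normalized counts (reads rescaled over all 15 libraries, the scale of every level given here) were 218, 285 and 310.3 in the HGG controls. The libraries labelled Sox9-LOF had 739, 579 and 395, and HGG Sox9-GOF had 1275, 1537 and 1391. In EPN they were 1045, 1040.2 and 1189 in the controls and 2055, 1834 and 2692 in Sox9-GOF. The Sox9 transcript was thus higher in every library labelled Sox9-LOF than in every HGG control, and not lower. As the method is not given, the transcript level does not show whether Sox9 function was lost there. Every direction given below for that group carries this limit. Depth ran from 4665428 reads in HGG control 2 to 14119140 in EPN Sox9-GOF 1, with a median of 10578708. HGG control 1 stood apart from the other libraries: its summed choroid plexus markers were 109326 normalized counts, against 50.7 to 24457 in the other 14 libraries, and its summed neuron markers were 6665, the lowest of the 9 HGG libraries. For the HIF targets in the comparisons with HGG controls, list medians are given with and without it.

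Glycolysis splits glucose into pyruvate in the cytoplasm and yields ATP without oxygen. Hexokinase and phosphofructokinase commit the sugar, aldolase splits it, the enzymes from glyceraldehyde-3-phosphate dehydrogenase to pyruvate kinase recover the energy, and lactate dehydrogenase turns pyruvate into lactate. In low oxygen the prolyl hydroxylases slow down, the HIF alpha proteins are no longer degraded, and with HIF beta they bind hypoxia response elements in promoters and enhancers. Their targets raise blood vessel growth, collagen hydroxylation, mitophagy and glycolysis itself, and in brain tumours such genes mark tissue around necrosis. HIF alpha is controlled mainly at the level of the protein, so the transcripts of Hif1a and Epas1 are not a readout of its activity. Several enzymes and transporters, among them Ldha, Pgk1, Hk2, Slc2a1 and Slc16a3, are known HIF targets as well, but are counted here by their biochemical role.

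Promoter sequences of 31 of the 34 genes were found in RefSeq (GRCm38.p6). The core of the hypoxia response element was searched as ACGTG or GCGTG on both strands in the 250 bases before the start site, so the palindrome CACGTG counts on each strand. At least 1 match stood in 9 of 10 HIF targets (90.0%), 11 of 17 enzymes (64.7%) and 3 of 3 transporters, against 6245 of 11396 promoters of genes with a mean of at least 10 normalized counts (54.8%) and 10431 of 27025 promoters in all (38.6%). Below are the promoters of the 3 HIF targets whose HGG Sox9-GOF libraries lay under all 6 other HGG libraries (Adm, P4ha2 and Vegfa), of lactate dehydrogenase A, and of the lactate transporter Slc16a1, the 1 member called for the difference between the models. They run 5′ to 3′ on the gene's strand, with matches in capitals.
Adm, chr7:110627407-110627656, plus strand, 2 matches: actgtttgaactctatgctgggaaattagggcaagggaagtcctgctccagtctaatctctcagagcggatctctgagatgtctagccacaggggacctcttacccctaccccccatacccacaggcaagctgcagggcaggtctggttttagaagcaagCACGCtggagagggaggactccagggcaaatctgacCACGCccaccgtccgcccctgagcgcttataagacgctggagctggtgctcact
P4ha2, chr11:54100674-54100923, plus strand, 3 matches: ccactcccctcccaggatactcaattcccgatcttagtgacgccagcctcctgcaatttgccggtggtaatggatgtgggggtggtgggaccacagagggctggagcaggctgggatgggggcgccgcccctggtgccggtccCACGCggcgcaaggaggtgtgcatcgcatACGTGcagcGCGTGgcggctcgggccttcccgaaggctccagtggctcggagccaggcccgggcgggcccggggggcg
Vegfa, chr17:46032378-46032627, minus strand, 0 matches: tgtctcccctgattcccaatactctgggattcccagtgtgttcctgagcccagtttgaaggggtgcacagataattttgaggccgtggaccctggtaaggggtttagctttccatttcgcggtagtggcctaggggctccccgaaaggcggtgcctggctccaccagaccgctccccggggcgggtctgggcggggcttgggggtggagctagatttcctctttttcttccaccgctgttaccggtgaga
Ldha, chr7:46845554-46845803, plus strand, 5 matches: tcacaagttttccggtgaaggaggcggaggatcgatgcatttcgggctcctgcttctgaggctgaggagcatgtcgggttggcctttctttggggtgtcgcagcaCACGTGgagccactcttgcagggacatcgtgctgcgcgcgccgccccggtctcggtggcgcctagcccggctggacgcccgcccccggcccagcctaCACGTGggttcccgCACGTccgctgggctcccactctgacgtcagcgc
Slc16a1, chr3:104638414-104638663, plus strand, 4 matches: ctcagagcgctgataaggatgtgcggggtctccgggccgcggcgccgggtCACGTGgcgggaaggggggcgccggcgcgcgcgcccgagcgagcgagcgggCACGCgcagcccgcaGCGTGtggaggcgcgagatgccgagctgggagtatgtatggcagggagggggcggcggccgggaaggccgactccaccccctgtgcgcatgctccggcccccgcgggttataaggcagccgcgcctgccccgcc
The matches are letters in a window and not sites known to be bound, and the window of Vegfa held none.

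On the RPKM scale, which corrects reads for transcript length and library depth, and averaged over 15 libraries, the most abundant members were enzymes. Gapdh stood at 1146, Aldoa at 723, Pkm at 579, Pgk1 at 382, Ldhb at 361, Tpi1 at 354 and Ldha at 321 on this scale. The HIF targets were lower, from 94.6 for Ddit4, an inhibitor of mTOR signalling, and 65.0 for Vegfa, the main growth factor of blood vessels, to 5.71 for Ankrd37. Among the transporters, Slc2a1 (GLUT1) stood at 40.8, Slc16a1 (MCT1) at 18.9, Slc2a3 (GLUT3) at 17.7 and Slc16a3 (MCT4) at 8.53. On the normalized-count scale the highest library held 50.8 times the lowest for Slc16a3 and 41.4 times for Slc2a3. Among the HIF targets this ratio ran from 3.00 for P4ha1, 3.33 for Pdk1 and 3.44 for Pfkfb3 to 26.5 for Adm and 28.1 for Vegfa. Among the enzymes it ran from 2.23 for Gpi1 and 2.88 for Aldoa to 9.23 for Hk2, 11.8 for Aldoc and 15.5 for Eno2.

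Eno1, which encodes enolase 1, needs a caution. Its row held only 18.5 to 93.6 normalized counts, while the row of Eno1b, a near-identical copy, held 13732, 4396 and 5937 in the HGG controls. Eno1b was named after its values were seen, and reads of the pair cannot be told apart, so the Eno1 row is uncertain. Gapdh, Pgk1, Ldha, Pgam1 and Aldoa each have 2 named pseudogenes in the annotation, which may take reads as well.

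The enzymes and the HIF targets were also followed library by library. For each gene the log2 value of a library was set against the gene's mean over 15 libraries, and these deviations were averaged over the list. In EPN the HIF targets averaged 0.19, 0.53 and 0.61 for the controls and 0.40, 0.70 and 1.29 for Sox9-GOF. The libraries labelled Sox9-LOF stood at -0.48, -0.68 and -0.05, and HGG Sox9-GOF at -0.92, -1.01 and -0.80. The HGG controls ranged widely, with 1.12, -0.61 and -0.29. The enzymes moved less, between -0.50 in HGG control 2 and 0.53 in HGG control 3. Within a library, the HIF targets stood 0.51 to 1.22 above the enzymes in all 6 EPN libraries and 0.21 to 1.02 below them in the 6 HGG libraries of changed Sox9. In the HGG controls this gap was 0.60, -0.11 and -0.81. Within each of the 5 groups the lowest library was the same for both lists (replicate 2 in the 3 HGG groups and replicate 1 in both EPN groups).

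**Figure D1:**
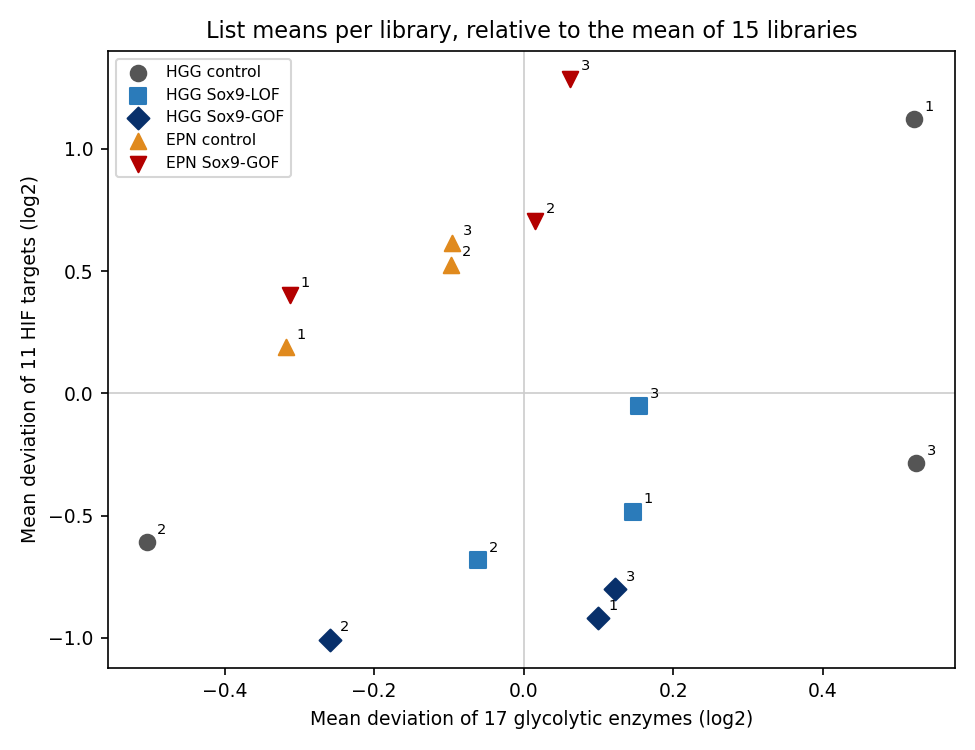
Each point is 1 of 15 libraries; the x axis is the mean log2 deviation of the 17 glycolytic enzymes and the y axis that of the 11 HIF targets, both relative to the mean of all libraries, with replicate numbers beside the points. The 6 EPN libraries lie above 0 for HIF targets and the 3 HGG Sox9-GOF libraries lie lowest, while HGG control 1 stands apart at upper right.

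The first comparison asks what gain of Sox9 function goes with in the HGG model. Of the 11 HIF targets, 10 had a lower fitted value in HGG Sox9-GOF than in control, and in 6 of them (Adm, Ankrd37, Ndrg1, P4ha1, P4ha2 and Vegfa) the 3 Sox9-GOF libraries lay below all 3 controls. The median log2 fold change of the list was -1.07, against 0.03 over all 15092 genes tested. The 17 enzymes had a median of -0.18, with 6 above 0 and 11 below, and none was separated between the groups. Of all genes, 51.9% lay above 0 and 48.1% below. By limma with Benjamini-Hochberg adjustment, 0 of 15092 genes passed 0.05 (0% called), so 0 members were called, while 3420 genes had an unadjusted p under 0.05. edgeR called 0 genes as well. Over all genes, 15.3% did not overlap with Sox9-GOF higher and 15.2% with Sox9-GOF lower, and among the 34 members these were 1 and 7.

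Among the HIF targets that act outside the cell, Vegfa had 4412, 820.1 and 567 normalized counts in the HGG controls and 416, 296 and 520.0 in Sox9-GOF. Its log2 fold change was -1.64 (SE 0.75, limma adjusted p = 0.257). Adm, the vessel-dilating peptide adrenomedullin, had 332, 32.8 and 40.5 in the controls and 30.9, 16.9 and 20.2 in Sox9-GOF, a log2 fold change of -1.74 (SE 0.90, limma adjusted p = 0.307). For both genes control 1 was several times the other controls, yet all 3 Sox9-GOF libraries lay below every control.

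P4ha1 and P4ha2 encode catalytic subunits of collagen prolyl 4-hydroxylase. P4ha2 had 304, 103 and 89.5 normalized counts in the HGG controls and 30.1, 41.1 and 55.2 in Sox9-GOF, a log2 fold change of -1.74 (SE 0.54, limma adjusted p = 0.128). P4ha1 had 1752, 795 and 1097 in the controls against 601, 659 and 704 in Sox9-GOF, a log2 fold change of -0.79 (SE 0.30, limma adjusted p = 0.186). Ndrg1, a stress-induced gene of differentiating cells, had 1263, 2354 and 1060.3 in the controls against 406, 591 and 979 in Sox9-GOF, a log2 fold change of -1.22 (SE 0.43, limma adjusted p = 0.162). In these genes as well the groups did not overlap.

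Ankrd37 had 129, 32.8 and 68.9 normalized counts in the HGG controls and 29.4, 32.3 and 30.7 in Sox9-GOF, with a log2 fold change of -1.07 (SE 0.53, limma adjusted p = 0.288). The groups missed each other by less than 1 normalized count there. Egln3, an oxygen-sensing prolyl hydroxylase that HIF itself induces, had 639.6, 144 and 311 in the controls against 181, 119.6 and 133 in Sox9-GOF, and the groups overlapped. Ddit4 and Bnip3, a mitophagy receptor, overlapped too, with log2 fold changes of -1.07 and -0.20. The targets that steer glycolysis lay nearer 0: Pfkfb3, which makes the activator of phosphofructokinase, was at -0.24, and Pdk1, which switches off pyruvate dehydrogenase, was at 0.21 and was the only target above 0.

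Hif1a ran the other way. It had 1163, 808 and 1092 normalized counts in the HGG controls and 1676, 1524 and 2083 in Sox9-GOF, with no overlap (log2 fold change 0.81, SE 0.22, limma adjusted p = 0.102). Its adjusted p ranged from 0.0148 to 0.919 over the alternatives, and after the correction for GC and length its log2 fold change was 0.079. Epas1, which encodes HIF-2 alpha, had 367, 1652 and 893 in the controls against 899, 1034 and 1345 in Sox9-GOF and overlapped (0.42, SE 0.54, limma adjusted p = 0.683). Of the transporters, only Slc2a1 was separated, at 2312, 816 and 1375 in the controls and 596, 519.6 and 694 in Sox9-GOF (log2 fold change -1.17, SE 0.38, limma adjusted p = 0.141). Endothelial cells of the brain carry much GLUT1, and the summed endothelial markers were 663 to 1562 normalized counts in the controls and 663 to 925 in Sox9-GOF. The part of this marker shift in the Slc2a1 result was not tested. Astrocyte markers had a value above 0 in 8 of 8 genes (median log2 fold change 1.12; sums of 9044 to 43915 in the controls and 29533 to 108623 in Sox9-GOF), neuron markers in 7 of 8 (1.07) and microglia and macrophage markers in 8 of 8 (0.56), while 6 of 6 choroid plexus markers lay below 0 (-0.57). Summed oligodendrocyte markers were 38757 to 128694 normalized counts in the controls and 14238 to 65781 in Sox9-GOF. Because limma called 0 of 15092 genes here, none of these markers could be among those called. Rows that follow ribosomal RNA carry-over and library quality (Rn45s, Lars2, Mir6236 and Malat1, summed) were at 20792 to 42290 in the controls and 12410 to 77469 in Sox9-GOF. The part of these cell types and of these rows in the HIF target values was not tested.

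DESeq2 called 2260 genes in the same libraries (7.26% higher and 7.72% lower), among them 6 members: Hif1a higher, and Adm, P4ha2, Slc16a3, Slc2a1 and Vegfa lower. Without HGG control 1 the HIF targets had a median of -0.55, with 3 above 0 and 8 below, and the enzymes stood at -0.09. Without that library Vegfa had a log2 fold change of -0.75, Adm -0.69, P4ha2 -1.19, P4ha1 -0.50, Ndrg1 -1.34 and Ankrd37 -0.60, while Hif1a stood at 0.91. The enzyme median was -0.57 without HGG control 2, the library of lowest depth. That library held the lowest normalized count of all 15 for several enzymes, among them Gapdh, Pkm, Pgk1, Tpi1 and Ldha. Fold changes in this comparison ran with transcript GC content over all genes (Spearman rho -0.603, a description across genes, which are not independent). The median GC content was 53.5% for the enzymes, 50.9% for the HIF targets and 50.2% for all genes. After a correction for GC and length, 11 of 11 HIF targets lay below 0 with a median of -0.89, whereas the enzymes turned to 0.17, with 12 above 0.

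**Figure D2:**
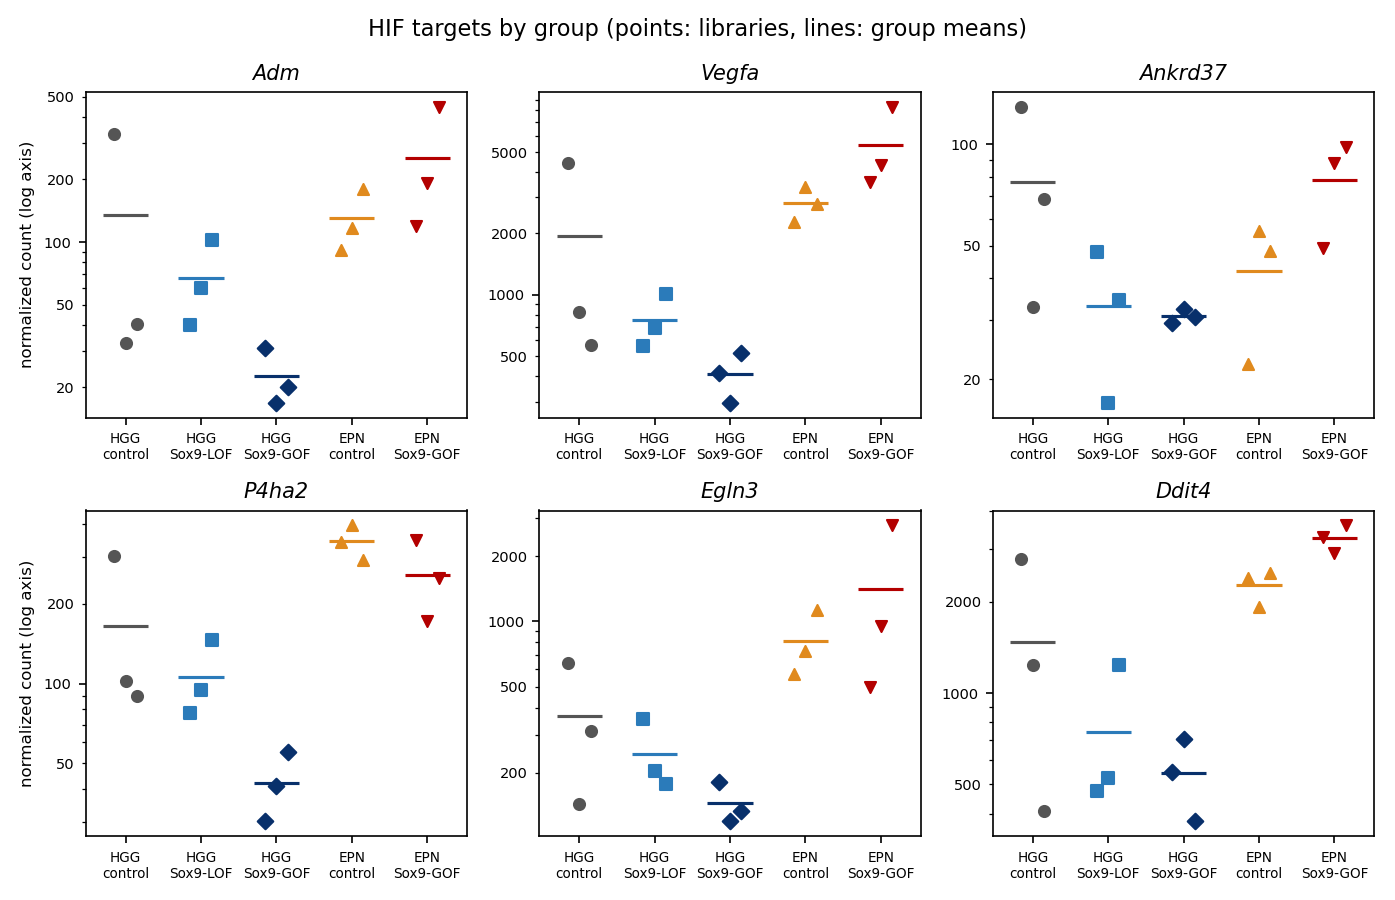
Normalized counts (log axis) of 6 HIF targets in each library, by group on the x axis; points are libraries and lines are means of 3 libraries. For Adm, Vegfa and P4ha2 the HGG Sox9-GOF libraries lie below every other library, and for Ddit4 and Vegfa the EPN Sox9-GOF libraries lie above every EPN control.

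The libraries labelled Sox9-LOF were compared with the same HGG controls, so this comparison and the previous one share 3 libraries. Of the HIF targets, 10 of 11 lay below 0 here as well, against 49.3% of all genes, with a median of -0.42 against 0.01 over all 14861 genes tested, and the enzymes had a median of -0.16. By limma 0 genes were called (0%), with 2564 at an unadjusted p under 0.05, edgeR called 0, and DESeq2 called 1339 genes (4.23% higher, 4.78% lower) but 0 members. Groups did not overlap for 12.8% of all genes upward and 11.7% downward, and for 1 and 0 of the members. The 1 member was Slc16a1, which carries lactate and pyruvate across the membrane, at 658, 830.3 and 671 in the controls against 1112, 1156 and 985 in those labelled Sox9-LOF (log2 fold change 0.59, SE 0.19, limma adjusted p = 0.214). Its adjusted p ranged from 0.0636 to 0.814 over the alternatives. Fold changes here too ran with transcript GC content over all genes (Spearman rho -0.495). After the GC and length correction, 1325 genes had an unadjusted limma p under 0.05. The GC content of Slc16a1 is 42.9%, against a median of 50.2% for all genes.

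The direction of the HIF target median in this comparison changed without HGG control 1. It was then 0.08, with 7 above 0 and 4 below, and the enzyme median was 0.07. Without HGG control 2 both medians were further below 0, at -0.78 and -0.58. Astrocyte markers were higher in the libraries labelled Sox9-LOF in 8 of 8 genes (median log2 fold change 1.75) and neuron markers in 8 of 8 (median 0.89). Their part in the values of Slc16a1 was not tested.

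The members next nearest the threshold in the libraries labelled Sox9-LOF overlapped with the controls. Hif1a had 1692, 1905 and 1111 normalized counts there (log2 fold change 0.59, SE 0.28, limma adjusted p = 0.333), and Epas1 had 1055, 1349 and 2060.2. Pfkm had 1129, 2456 and 3407 in the controls against 4228, 3659.6 and 3319 (0.81, limma adjusted p = 0.373). Pfkl went the other way, at 3630.0, 1015 and 2486 in the controls against 1401, 952 and 1079.6 (-0.90, limma adjusted p = 0.373). Transcript GC content is 41.3% for Hif1a, 54.7% for Pfkm and 57.1% for Pfkl. Rows that follow ribosomal RNA carry-over and library quality (Rn45s, Lars2, Mir6236 and Malat1, summed) were at 20792 to 42290 in the HGG controls and 14726 to 14965 in the libraries labelled Sox9-LOF, and their part in these values was not tested.

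Both changed HGG groups were also set directly against each other, which leaves the variable controls out. In Sox9-GOF, Slc2a1 was lower than in the libraries labelled Sox9-LOF, which had 1153, 1060.2 and 1899.9 normalized counts, with no overlap (log2 fold change -1.14, SE 0.25, limma adjusted p = 0.578). Endothelial markers were below 0 in 8 of 8 genes there (median -0.59, 2 of them separated downward), and their part in the Slc2a1 value was not tested. Adm, at 39.8, 60.2 and 102 in those labelled Sox9-LOF, differed by -1.47 (SE 0.44), P4ha2, at 77.2, 94.2 and 146, by -1.30 (SE 0.36), and Vegfa, at 562, 692 and 1014, by -0.87 (SE 0.29), each with a limma adjusted p of 0.620. In all, 8 members were separated downward (Adm, Gpi1, P4ha2, Pfkfb3, Pfkm, Slc16a1, Slc2a1 and Vegfa) and 1 upward (Hk2), against 7.6% and 6% of all genes. limma and edgeR called 0 of 14873 genes (0% by limma), with 1102 at an unadjusted limma p under 0.05, and DESeq2 called 139 genes (0.37% lower), of which Slc2a1 was the 1 member (log2 fold change -1.17, adjusted p = 0.0133). Of the 34 members 9 lay above 0 and 25 below, against 47.2% and 52.8% of all genes. The median of the HIF targets was -0.41 and that of the enzymes -0.11, against -0.02 over all genes. Leaving out 1 library at a time gave -0.69 (without the library labelled Sox9-LOF 2) to -0.26 (without that labelled Sox9-LOF 3) for the HIF targets.

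In the EPN model, gain of Sox9 function went with higher fitted values for 21 of the 34 members, against 55% of all genes, and lower ones for 13, against 45%. The 17 enzymes had a median log2 fold change of 0.36 (11 above 0, 6 below) and the 11 HIF targets one of 0.54 (8 above, 3 below), against 0.04 over all 14591 genes. limma called 0 genes (0%) and hence 0 members, with 2196 genes at an unadjusted p under 0.05, and edgeR called 0. On the scale of the deposited table the groups were separated upward for 8 members, the uncertain Eno1 row among them, against 9.45% of all genes. They were separated downward for 4, against 12.5%. Without EPN Sox9-GOF 3 the enzyme median was 0.22 and the HIF target median 0.18, and without EPN control 1 the latter was 0.32. The summed rows for ribosomal RNA carry-over and library quality were at 11167, 10260.2 and 11954 normalized counts in the EPN controls and 45001, 24599 and 117618 in Sox9-GOF, with no overlap, so the same replicate 3 was highest there. Of these 4 rows, 3 had a value above 0. Their part in the enzyme and HIF target values was not tested.

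The enzymes separated upward were Eno1, Gapdh, Ldha, Pfkl, Pgk1 and Tpi1. Ldha, the lactate dehydrogenase subunit that favours lactate, had 4043, 5721 and 4842 normalized counts in the EPN controls and 6540.2, 7031 and 9638 in Sox9-GOF (log2 fold change 0.71, SE 0.22, limma adjusted p = 0.200). Pfkl, the liver-type phosphofructokinase, had 1490.5, 1840.4 and 1559 in the controls against 1797, 2523 and 3281 in Sox9-GOF (0.65, SE 0.23, limma adjusted p = 0.253). Tpi1, which interconverts the 2 triose phosphates, had 3915, 4988 and 4843 in the controls against 5155, 6356 and 8224 in Sox9-GOF. Pgk1 and Gapdh, the next steps of the pathway, had log2 fold changes of 0.54 and 0.48. For Ldha, Tpi1, Pgk1 and Gapdh all 3 Sox9-GOF libraries exceeded all 3 controls. For Pfkl this held on the scale of the deposited table, while on the joint scale of the values printed here 1 Sox9-GOF library lay below 1 control. Sox9-GOF 3 was the highest library for Ldha, Pfkl and Tpi1.

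The enzymes separated downward were Eno2 and Pfkm. Eno2, the neuronal enolase, had 779.6, 659 and 1529 normalized counts in the EPN controls and 432, 467 and 503 in Sox9-GOF (log2 fold change -0.94, SE 0.31, limma adjusted p = 0.222). Pfkm, the muscle-type phosphofructokinase, had 1085, 1075 and 1546 in the controls against 622, 961 and 729 in Sox9-GOF (-0.64, SE 0.22, limma adjusted p = 0.248). Aldoc, the aldolase of astrocytes, had 3466, 2344 and 2441 in the controls against 1011, 2936 and 932 in Sox9-GOF and overlapped (-0.90, SE 0.43, limma adjusted p = 0.386). Neuron markers stood lower as well: 8 of 8 had a fitted value below 0 (median log2 fold change -2.19), and their sum was 7112 to 15220 normalized counts in the controls and 2227 to 4012 in Sox9-GOF. Astrocyte markers were below 0 in 8 of 8 (median -1.75), with a sum of 35341 to 41746 in the controls and 7184 to 26793 in Sox9-GOF. The part of these cell types in the values of Eno2, Pfkm and Aldoc was not tested.

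Of the HIF targets in EPN, Ddit4 and Vegfa were separated. Ddit4 had 2397, 1923 and 2492 normalized counts in the controls and 3269, 2898 and 3584 in Sox9-GOF (log2 fold change 0.57, SE 0.17, limma adjusted p = 0.194). Vegfa had 2286, 3379.9 and 2793 in the controls against 3552, 4300.1 and 8328 in Sox9-GOF (0.90, SE 0.33, limma adjusted p = 0.259). Sox9-GOF 3 was the highest EPN library for both, and for Adm, Ankrd37, Bnip3 and Egln3 as well. Adm had 91.9, 117 and 180.5 in the controls and 119, 192 and 446 in Sox9-GOF, and Egln3 had 574, 731 and 1125 in the controls against 497, 951 and 2774 in Sox9-GOF, so that these groups overlapped. P4ha2, Ndrg1 and Pfkfb3 had log2 fold changes of -0.42, -0.24 and -0.12. Ankrd37 had 22.2, 55.2 and 48.2 in the controls and 49.0, 88.1 and 97.9 in Sox9-GOF, and overlapped as well. The alpha subunits did not separate the groups either: Hif1a had 1256, 1588 and 1204 in the controls against 1811, 807 and 1429 in Sox9-GOF (log2 fold change -0.02), and Epas1 had 2385, 2351 and 1878 against 1533, 1953 and 1699 (-0.30).

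The largest EPN differences were in transporters. Slc16a1 had 640.1, 1394 and 1063 normalized counts in the EPN controls and 420.3, 405 and 362 in Sox9-GOF (log2 fold change -1.27, SE 0.28, 2.41-fold lower, limma adjusted p = 0.152). Slc2a3, the high-affinity glucose transporter of neurons, had 188, 237 and 299 in the controls against 98.1, 107 and 45.1 in Sox9-GOF (-1.54, SE 0.38, 2.91-fold lower, limma adjusted p = 0.161). In both genes every Sox9-GOF library lay below every control. DESeq2 called 842 genes (0.829% higher, 4.94% lower), and these were its 2 members, with adjusted p-values of 0.00187 for Slc16a1 and 0.00994 for Slc2a3. Slc2a1 and Slc16a3 overlapped, at log2 fold changes of 0.05 and 0.35. Beside the lower neuron and astrocyte markers given above, oligodendrocyte markers were below 0 in 7 of 8 genes (median -1.88; sums of 21791 to 41364 in the EPN controls and 7813 to 27917 in Sox9-GOF) and oligodendrocyte precursor markers in 5 of 6 (median -1.36; 6327 to 6413 and 3613 to 4595). Endothelial markers were below 0 in 8 of 8 (median -0.53; 3367 to 4597 and 2187 to 3625). The part of these cell types in the values of Slc16a1 and Slc2a3 was not tested.

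**Figure D3:**
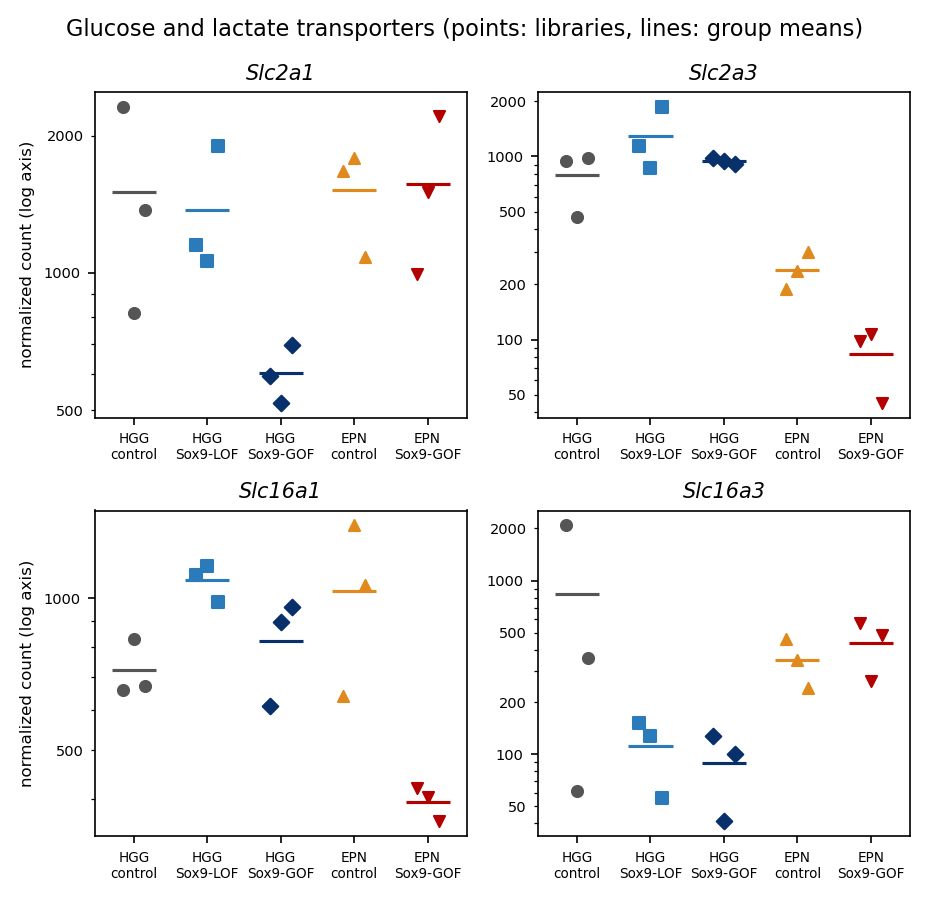
Normalized counts (log axis) of the 4 glucose and lactate transporters in each library, by group on the x axis; points are libraries and lines are means of 3 libraries. Slc2a3 lies lower in each EPN control than in any HGG library and lower again in EPN Sox9-GOF, and the 3 EPN Sox9-GOF libraries hold less Slc16a1 than any other library.

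Whether gain of Sox9 function went with different changes in the 2 models was tested as the difference of the log2 fold changes, EPN minus HGG. Because the tables had been normalized separately, the reads of all 15 libraries were first rescaled together. limma called 920 of 15088 genes (6.1%; 2.63% higher and 3.47% lower in EPN), and 1 member: Slc16a1, with a difference of -1.49 (SE 0.38, 2.80-fold lower, adjusted p = 0.0472). The HGG Sox9-GOF libraries had 612, 897 and 959 normalized counts and overlapped with the HGG controls. Its mean was 719.8 ± 96.0 in HGG control, 823 ± 185 in HGG Sox9-GOF, 1032 ± 378 in EPN control and 396 ± 30.2 in EPN Sox9-GOF (mean ± SD, n = 3). The gene lies at chr3:104638668-104658462 (GRCm38, plus strand, protein-coding). This call was narrow: the adjusted p ranged from 0.00338 to 0.246 over the alternatives, was under 0.05 when HGG control 3 or EPN control 1 was left out (0.0477 and 0.0376) and above it when any of the other 10 libraries was left out. edgeR also called it (adjusted p = 0.0429), with 2.27% of all genes higher and 2.56% lower. After correction for GC and length the difference was -0.87 (limma adjusted p = 0.246).

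The HIF targets had a difference above 0 in 11 of 11 genes, against 47.7% of all genes, from 0.01 for Pdk1 to 2.55 for Adm, with a median of 1.29 against -0.05 over all genes and 0.30 for the enzymes. Vegfa differed by 2.52 (SE 0.89, limma adjusted p = 0.103), Ankrd37 by 2.01 (SE 0.72, limma adjusted p = 0.107) and P4ha1 by 1.02 (SE 0.38, limma adjusted p = 0.115), and none of these passed. Of the 11, 7 had a value below 0 in HGG and above 0 in EPN, and 0 had the reverse. Without HGG control 1 the median was 0.95, with 9 above 0 and 2 below, and the differences were 1.62 for Vegfa, 1.54 for Ankrd37 and 0.72 for P4ha1. With all libraries and the GC and length correction the median was 1.38, with 11 of 11 above 0.

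Among the enzymes, 9 of 17 were below 0 in HGG and above 0 in EPN, and 4 (Aldoc, Eno2, Pfkm and Pfkp) the reverse. The enzyme median of 0.30 became 0.59 when Eno1b stood in for Eno1, and -0.07 after the GC and length correction, so its direction depended on that choice. It was 0.13 without HGG control 3 and 1.08 without HGG control 2. Fold-change differences ran with GC content at a Spearman rho of 0.436 over all genes. Among the transporters, Slc2a3, at 983, 942 and 911 in HGG Sox9-GOF, differed by -1.91 (SE 0.51, limma adjusted p = 0.0516), while Slc2a1 differed by 1.20 (SE 0.54, limma adjusted p = 0.180) and Slc16a3 by 2.45 (SE 1.39, limma adjusted p = 0.284). DESeq2 called 2468 genes (7.97% higher, 8.39% lower) and 8 members: Adm, Ankrd37, Ddit4, P4ha1, Slc16a3 and Vegfa higher in EPN, Slc16a1 and Slc2a3 lower. By limma, leaving out HGG control 3 called 4 members, Ddit4 and Vegfa higher and Slc16a1 and Slc2a3 lower, and leaving out HGG control 2 called Pfkl and Pgam1 higher. These left-out fits called 14.2% and 4.1% of all genes.

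**Figure D4:**
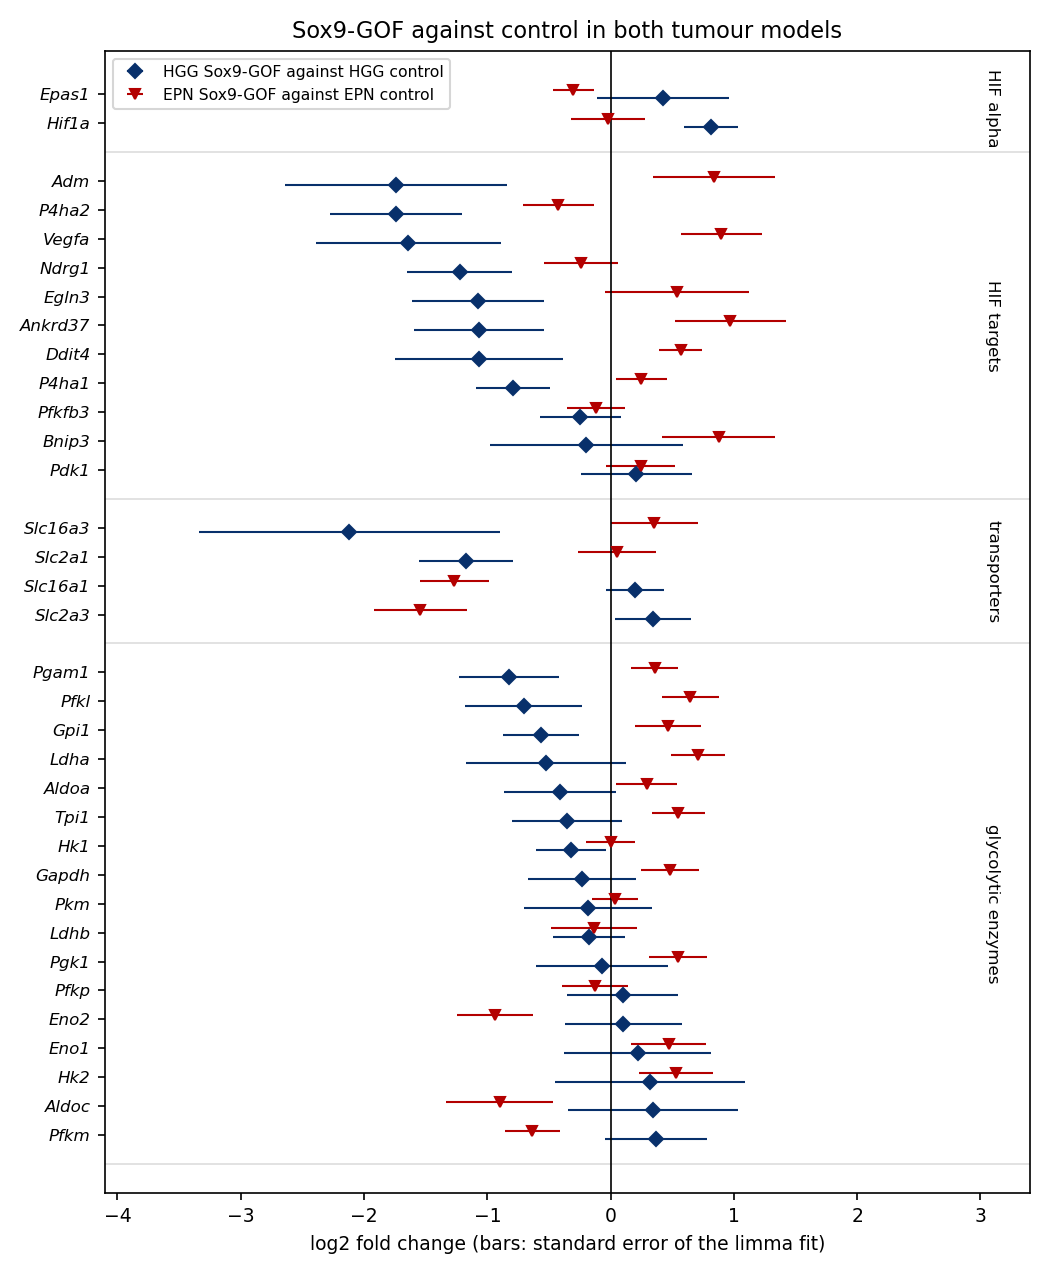
Log2 fold change (x axis) of each of the 34 genes (y axis, by list) for Sox9-GOF against control in HGG (diamonds) and EPN (triangles), with bars for the standard error of the limma fit. Of the 11 HIF targets, 10 lie left of 0 in HGG and 8 lie right of 0 in EPN; Slc16a1 and Slc2a3 lie right of 0 in HGG and furthest left in EPN.

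The controls of both models were compared last, a contrast in which model and batch, if libraries were made separately, cannot be told apart. limma called 2317 of 15105 genes (15.3%; 9.51% higher and 5.83% lower in EPN) and 1 member. Slc2a3 had 939.6, 465 and 982 normalized counts in the HGG controls and 188, 237 and 299 in the EPN controls (log2 fold change -1.67, SE 0.35, 3.18-fold lower, adjusted p = 0.0264). The gene lies at chr6:122727809-122801640 (GRCm38, minus strand, protein-coding). edgeR called it as well (adjusted p = 0.0249), with 8.51% of all genes higher and 6.45% lower, and DESeq2 (14.6% and 14.5%) called it together with Eno2. The limma adjusted p was 0.0588 without HGG control 3 and 0.0674 to 0.107 without any 1 EPN control. Summed neuron markers were 6665 to 52588 in the HGG controls and 7112 to 15220 in the EPN controls, and their part in the Slc2a3 result was not tested. The 4 rows for ribosomal RNA carry-over and library quality were all lower in EPN with no overlap, 2 of them called, at summed counts of 20792 to 42290 in the HGG controls and 10260.2 to 11954 in the EPN controls. Their part in the member values of this contrast was not tested.

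Next by adjusted p was Eno2, at 2071, 2786 and 6690.4 normalized counts in the HGG controls and 779.6, 659 and 1529 in the EPN controls (log2 fold change -1.87, SE 0.51, limma adjusted p = 0.0551). Of the enzymes, 14 of 17 had a value below 0 in EPN, against 49.8% of all genes, with a median of -0.40. Of the HIF targets, 7 of 11 had a value above 0, against 50.2%, with a median of 0.70. Over all genes the median was 0.0025. The HIF target median was 0.60 without HGG control 1, 0.10 without HGG control 2 and 0.25 without HGG control 3, and the enzyme median was -0.15 without HGG control 1. P4ha2 had 344, 397 and 292 in the EPN controls, with HGG control 1 at 304 above the lowest of them (log2 fold change 1.27, limma adjusted p = 0.122). Both HIF alpha subunits were separated upward: Epas1 had 2385, 2351 and 1878 in the EPN controls (log2 fold change 1.43, SE 0.52, limma adjusted p = 0.112) and Hif1a 1256, 1588 and 1204 (0.41, SE 0.21, limma adjusted p = 0.228), the latter at -0.0061 after correction for GC and length. In all, 2 members were separated upward, against 21.9% of all genes, and 3 downward (Eno2, Hk1 and Slc2a3), against 18.4%. Epas1 is abundant in blood vessels, and summed endothelial markers were 663 to 1562 in the HGG controls and 3367 to 4597 in the EPN controls. Pericyte marker sums were 484 to 685 and 3668 to 4300. Their part in the Epas1 result was not tested.

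Without HGG control 1 this contrast called 24.2% of all genes and 8 members: Adm, Egln3, P4ha2 and Vegfa higher in EPN, and Aldoc, Eno2, Pfkm and Slc2a3 lower. Without HGG control 2 it called 12.2% of all genes and 5 members: Epas1 and Ndrg1 higher, and Pfkfb3, Pgam1 and Slc2a3 lower. In both cases the share of members called was near that of all genes, and Slc2a3 was among them.

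Isozyme shares were computed per transcript length within each library, for families chosen after their values were seen, and are given as a description. Slc2a1 made up 63.0% to 74.9% of Slc2a1 and Slc2a3 together in the HGG controls, 55.2% to 59.8% in the libraries labelled Sox9-LOF and 40.1% to 48.1% in HGG Sox9-GOF. In EPN it made up 81.5% to 91.5% in the controls and 92.5% to 98.3% in Sox9-GOF, so none of the 5 groups overlapped. Pfkl made up 33.2% to 35.9% of the 3 phosphofructokinases in the EPN controls and 45.2% to 62.5% in EPN Sox9-GOF, and 13.2% to 55.9% in the HGG libraries. The Pfkm share in EPN was 27.2% to 42.7% in the controls and 18.0% to 22.3% in Sox9-GOF. Slc16a3, the lactate exporter of strongly glycolytic cells, made up 18.7% to 42.3% of Slc16a1 and Slc16a3 in the EPN controls and 40.0% to 58.0% in Sox9-GOF, which overlapped. The Ldha share of lactate dehydrogenase was 26.4% to 41.6% in the EPN controls and 37.7% to 59.6% in Sox9-GOF, and it ranged from 28.6% to 81.9% among the HGG controls alone.

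**Figure D5:**
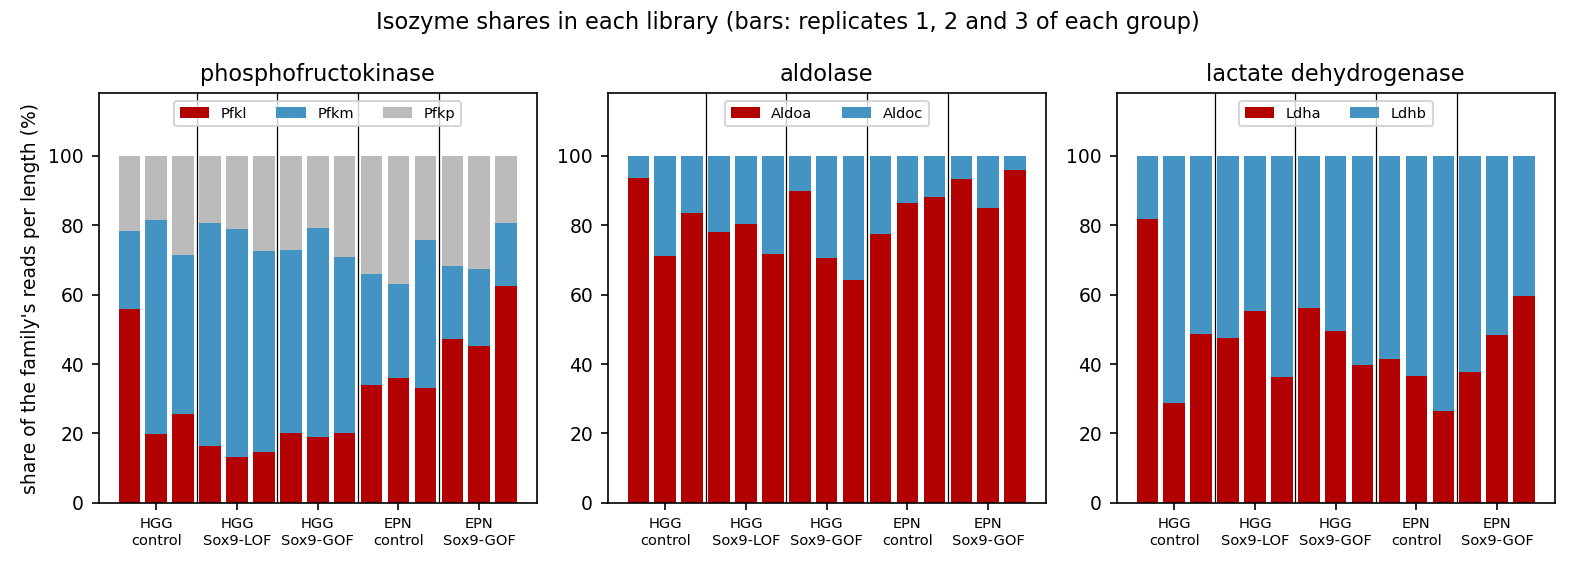
Share of each isozyme in its family's reads per transcript length (y axis, percent) for phosphofructokinase, aldolase and lactate dehydrogenase, with 1 bar per library in the order of replicates 1, 2 and 3 of each group. The Pfkl share lies between 45.2% and 62.5% in EPN Sox9-GOF, above the 33.2% to 35.9% of the EPN controls, and HGG control 1 has the highest Pfkl and Ldha shares of the HGG controls, 55.9% and 81.9%.

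Further genes of the same pathways were taken from lists of 7 oxygen-sensing genes, 24 other HIF targets and 20 other genes of glycolysis and pyruvate use. Between the controls, 3 of 24 other HIF targets were called higher in EPN and 0 lower, against 9.51% and 5.83% of all genes. Angptl4, a secreted inhibitor of lipoprotein lipase, had 103 ± 31.8 normalized counts in HGG control and 843 ± 319 in EPN control (mean ± SD, n = 3; log2 fold change 2.99, limma adjusted p = 0.00614). Stc1, the hormone stanniocalcin, was at 3.17 (limma adjusted p = 0.0249) and Plod2, a collagen lysyl hydroxylase, at 2.92 (limma adjusted p = 0.0433). Of the 18 other glycolysis and pyruvate genes measured there, 2 were called lower: Pdha1, a subunit of pyruvate dehydrogenase (1.99-fold lower, limma adjusted p = 0.0297), and Eno3, the muscle enolase (-1.04, limma adjusted p = 0.0443). The 24 other HIF targets had a median of 0.51, with 15 above 0, against 50.2% of all genes.

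In HGG Sox9-GOF, 19 of the 23 other HIF targets measured had a value below 0, against 48.1% of all genes. Their median was -0.21, and none was called, with 0% of all genes called. Averaged per library as above, the deviations of all 24 ran from -0.92 to 0.80 in the HGG controls (mean -0.31). In HGG Sox9-GOF they ran from -0.73 to -0.50, within the range of the controls, so the groups overlapped. In EPN Sox9-GOF, 13 of 24 had a value above 0, near the 55% of all genes. Their median was 0.16, and none was called, with 0% of all genes called. For the difference between the models, 16 of 24 were above 0, against 47.7% of all genes, with a median of 0.30. None passed, against 6.1% of all genes. The difference rests on the same variable HGG controls, and no fit without HGG control 1 is given here for this list. The oxygen-sensing genes Egln2 and Egln1, prolyl hydroxylases that mark HIF alpha for degradation, had differences of 0.80 on the log2 scale (limma adjusted p = 0.0576) and of 2.47-fold (limma adjusted p = 0.0741). Pdha1 and Mpc1, the latter a subunit of the mitochondrial pyruvate carrier, lay at -1.36 (limma adjusted p = 0.0614) and -1.06 (limma adjusted p = 0.0744).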

How the data were processed

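Whole tumour tissue was profiled by stranded poly(A) RNA-seq, per the labels' protocols. The submitters' processing notes name mm10, the aligner STAR 2.5.0a and DESeq2 1.30.1. How reads were counted per gene, with which strand setting and annotation, is not given in the sources used here. The authors deposited a normalized signal: each value is a gene's read count over the size factor of its library, computed separately in each of 3 tables. Whole reads were recovered within 0.001 read for 100% of values; 6 empty unnamed columns were not used. The HGG controls stand in both HGG tables with identical reads.

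Because the values were normalized, and not raw counts as the design had assumed, limma 3.58.1 (trended, R 4.3.3) on log2(normalized count + 1) was the main test. Genes with a mean of at least 10 were kept, with Benjamini-Hochberg adjustment over all of them and a threshold of 0.05. Fold changes on this scale understate low genes. Contrasts within a table used its deposited scale, and those across tables the recovered reads rescaled together by median of ratios. edgeR 4.0.16 and DESeq2 1.42.0 on recovered reads, TMM scaling, a pseudocount of 8, no filter, a spread shared by 15 libraries, a replicate block, a GC and length correction (98.3% of genes had both) and leaving out each library were alternatives; Eno1b in place of Eno1 was added after seeing the data. The fit was tested on simulated data with a fixed dispersion and with no outlier library or GC trend. That test does not show how the fit performs on libraries as variable as the HGG controls. With 3 against 3 libraries the smallest exact two-sided permutation p is 0.1, so no permutation tests were made. Groups and replicate numbers come from the titles. Same-numbered libraries of HGG Sox9-GOF and control had correlated deviations (0.178, 0.443 and 0.224), though HGG Sox9-GOF 1 and HGG control 3 correlated more (0.295). Those of HGG Sox9-GOF and Sox9-LOF correlated at 0.0821, 0.168 and 0.275, against at most 0.0519 for differently numbered libraries. The labels state no pairing. In the other contrasts checked, not all same-numbered correlations were positive. With the replicate block, limma called 0 genes for HGG Sox9-GOF against control and against Sox9-LOF. The members and gene lists were chosen with earlier results of these data known. All members could be named, and every library's value is given for those called, for the 4 of smallest adjusted p in each comparison, and for Hif1a, Epas1 and Sox9.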

Additional observations from a re-analysis of the deposited data

Results flagged for a closer look

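The effect of Sox9-GOF on Slc16a1, the lactate and pyruvate transporter MCT1, differed between the 2 models by limma's test of the difference itself: -1.49 on the log2 scale, EPN minus HGG (SE 0.38, adjusted p = 0.0472, n = 3 libraries per group). All 3 EPN Sox9-GOF libraries lay below all 3 EPN controls, while the HGG groups overlapped. Over the alternatives the adjusted p ranged from 0.00338 to 0.246.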

How the results depend on the processing

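Of 390 values of counts and list medians under alternatives, 320 stayed within the limits set for them and 70 moved. For a list median the limit was the pooled SD between replicates of the list's mean, which is wide where replicates vary. The LOF median of the HIF targets turned from below to above 0 without HGG control 1 and still lay within it. This tally therefore does not show that directions held. Of 825 single-gene results, 772 kept their direction and their side of the threshold, 32 were newly past it, 19 were no longer past it, and 2 turned. Of the 51 member results behind them, only Slc2a3 between the controls and Slc16a1 for EPN minus HGG were called in the main fit. Most of the 772 were thus uncalled results that stayed uncalled. All 19 that were no longer past the threshold belonged to Slc2a3 and Slc16a1. In the order LOF, HGG GOF, EPN GOF, EPN control against HGG control, GOF against LOF, and EPN minus HGG, DESeq2 called 1339, 2260, 842, 4396, 139 and 2468 genes, and the spread shared by 15 libraries gave 1086, 2234, 130, 4176, 1 and 1514, against 0, 0, 0, 2317, 0 and 920. TMM scaling called 1 gene for LOF. Called members came to 6 (DESeq2) and 1 (shared spread) for HGG GOF, 2 and 1 for EPN GOF, 2 and 5 between the controls, and 8 and 2 for EPN minus HGG, and DESeq2 called 1 for GOF against LOF. For EPN minus HGG, 0 members were called with no filter on low values.

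With the replicate block, 0 genes were called for HGG GOF as before, and 1142 between the controls (1042 with the block and the GC and length correction), where Slc2a3 then had an adjusted p of 0.0527 and 0.0560 and Eno2 was called in its place (0.0306 and 0.0312). The call of Slc16a1 for EPN minus HGG did not change with the block alone (0.0416). The GC and length correction left 1 gene called for EPN minus HGG (3 with the replicate block) and 0 members, and turned the enzyme median there to -0.0678, with and without the block. It turned Hif1a between the controls from 0.41 to -0.0061, with and without the block. The causes were not tested.

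Leaving out 1 library at a time gave 0 to 6 genes called for LOF, 0 for HGG GOF, 0 to 5 for EPN GOF, 368 to 3633 between the controls, 0 to 2 for GOF against LOF and 44 to 2135 for EPN minus HGG. Called members ranged from 0 to 8 between the controls and from 0 to 4 for EPN minus HGG, and were 0 elsewhere. In the same order, the enzyme medians ranged from -0.58 to 0.0687, -0.57 to -0.09, 0.22 to 0.44, -0.69 to -0.15, -0.27 to -0.00047 and 0.13 to 1.08. The HIF target medians ranged from -0.78 to 0.08, -1.10 to -0.55, 0.18 to 0.64, 0.10 to 0.70, -0.69 to -0.26 and 0.95 to 1.58. Among the members, low ones such as Eno1 and Adm carry the most counting error at this depth.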
